A study of Mus musculus with 41 samples.

Results

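Hair follicle stem cells (HFSCs) keep their identity through a small set of transcription factors, and 8 of the genes that encode such factors, *Lhx2*, *Nfatc1*, *Foxc1*, *Tbx1*, *Nfib*, *Nfia*, *Vdr* and *Foxi3*, were examined here out of 21911 protein-coding genes. Their loci were taken as the gene body and 50 kb to each side in the mm10 mouse genome, and every peak of 16 pooled CUT&RUN (CNR) lists that overlapped a locus by at least 1 bp was counted as a peak of that locus. The rule names the genes and uses no measured value, but the genes were picked when earlier results of these data were known. A peak inside a locus may act on another gene, and for the single regions described the nearest protein-coding gene start is that of the member unless another gene is named. A gene start here is the 5′ end of the whole annotated gene, so a region can lie at the start of a shorter transcript of 1 gene and still be nearest to the gene start of another.

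CNR locates a protein on chromatin by sequencing the DNA released where a nuclease is held by an antibody to the protein. SOX9 is a pioneer transcription factor of HFSCs that epidermal stem cells (EpdSCs) do not normally make in quantity, and MLL3/4 are the histone methyltransferases of enhancers. The study switched SOX9 on in EpdSCs of mice and followed both proteins, asking where SOX9 binds and where MLL3/4 goes. It then did MYC-tag CNR and MLL3/4 CNR in cultured keratinocytes that carried intact or truncated SOX9.

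All EpdSC samples came from male CD1 mice of genotype K14rtTA; TRE-myc-Sox9, in which the *Krt14* promoter drives the doxycycline (DOX)-dependent activator in basal keratinocytes and DOX then switches on MYC-tagged *Sox9*. EpdSCs were sorted from back skin as cells negative for CD31, CD45, CD117, CD140a and CD34 with high CD49f and high Ly6A. SOX9 CNR was done at D0 (no DOX, postnatal day 21) and after 1 week (W1, day 28), 2 weeks (W2, day 35), 6 weeks (W6, day 63) and 12 weeks (W12) of DOX, and MLL3/4 CNR at D0, W1 and W2. The W12 skin had been grafted onto immunodeficient mice, so weeks of DOX, age and grafting cannot be told apart. Cultured keratinocytes, labelled as male CD1 as well and with the truncated transgenes given as TRE-myc-Sox9noTA and TRE-myc-Sox9noHMG, carried wild-type SOX9 (WT-SOX9) without DOX, or intact SOX9, a form lacking the transactivation domain (ΔTA-SOX9) or a form lacking the HMG domain that binds DNA (ΔHMG-SOX9) with DOX at 1 µg per ml. Each of the 16 groups had 2 samples behind 1 peak list, so there was no spread between replicates and no test between groups. Shares are given with 95% Wilson intervals (CI), and these account for counting error alone. Because the tissue was a mixture of cells, fewer cells bound at a site and less binding per cell cannot be told apart.

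A peak of the SOX9 and MYC-tag lists was listed only if its maximum signal passed 1800 RPKM (fragments scaled to sequence length and library size), and only if the peak caller had called it, so a locus without a peak is a locus without a listed peak and not one shown to lack signal. One fragment was worth 30.7 to 76.4 RPKM in the SOX9 lists and 164 to 248 RPKM in the shallower MYC-tag lists, so that the weakest peak rested on 24 to 59 and on 8 to 11 fragments. The MLL3/4 lists hold unscaled coverage of unknown depth. Of 5 basal epidermal markers, 4 (*Krt5*, *Krt14*, *Itga6* and *Col17a1*) had a D0 MLL3/4 peak within 1 kb of a start and *Itgb4* had none. Of the 4 markers of cells removed by the sort (*Pecam1*, *Ptprc*, *Kit* and *Pdgfra*), 0 had one, and of the 4 HFSC markers only *Krt15* did, whereas *Cd34*, *Lgr5* and *Lgr6* did not.

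The 8 factors belong to several families. LHX2 is a LIM-homeodomain protein that maintains stem cells in the bulge of the follicle. NFATC1 and FOXC1 hold these cells in quiescence, and TBX1 is a T-box factor tied to their self-renewal. NFIB and NFIA are nuclear factor I proteins, of which NFIB acts at HFSC enhancers. VDR, the vitamin D receptor, is a nuclear receptor without which hair cycling fails after the first coat. FOXI3 is a forkhead factor of developing skin appendages and of the hair germ.

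To show what SOX9 bound at these genes, the windows of 101 bp around the centre of the signal maximum are given for 1 SOX9 region at each of 6 of the 7 genes with a region. The window of *Nfatc1*, which held no SOX word, is not printed here. A region is a set of peaks of W1, W2, W6 and W12 that overlap, and the region taken was the one present at most time points and, among those, of highest maximum, without a D0 peak. Capitals mark SOX words on either strand, which are the word CCATTGT, the word CCTTTGT, the word GCATTGT and the word GCTTTGT, so that a word on the minus strand shows as its reverse complement. The AP1 word TGACTCA and its complement, the word TGAGTCA, were searched as well and were in none of the windows shown. All are read on the plus strand of mm10, at chr2:38377174-38377274 for *Lhx2*, chr13:31797589-31797689 for *Foxc1*, chr16:18549923-18550023 for *Tbx1*, chr4:82540604-82540704 for *Nfib*, chr4:97784439-97784539 for *Nfia* and chr15:97897633-97897733 for *Vdr*.
Lhx2: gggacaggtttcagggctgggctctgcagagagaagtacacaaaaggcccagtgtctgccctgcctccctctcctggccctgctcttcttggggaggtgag
Foxc1: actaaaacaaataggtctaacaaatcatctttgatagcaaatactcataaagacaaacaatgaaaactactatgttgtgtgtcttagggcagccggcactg
Tbx1: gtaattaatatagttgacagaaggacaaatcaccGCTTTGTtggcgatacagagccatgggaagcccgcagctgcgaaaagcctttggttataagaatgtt
Nfib: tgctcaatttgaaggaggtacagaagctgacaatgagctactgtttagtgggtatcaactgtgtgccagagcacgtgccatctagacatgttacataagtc
Nfia: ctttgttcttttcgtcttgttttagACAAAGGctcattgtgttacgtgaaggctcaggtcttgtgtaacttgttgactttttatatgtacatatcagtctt
Vdr: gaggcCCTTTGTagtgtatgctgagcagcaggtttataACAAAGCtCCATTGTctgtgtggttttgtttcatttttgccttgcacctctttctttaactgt

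The *Vdr* window held 3 SOX words, the *Tbx1* and *Nfia* windows 1 each, and the *Lhx2*, *Foxc1* and *Nfib* windows 0. Over the 70 SOX9 regions of the 8 loci, 12 windows (17.1%, 95% CI 10.1 to 27.6) held a SOX word, against 17.4% of 28549 regions of the genome and 6.33% of windows of the same length 1 kb to each side. The 12 belonged to regions of *Nfatc1* (4), *Vdr* (3), *Nfib* (2), *Nfia* (2) and *Tbx1* (1), and 1 of the *Nfib* windows lay just outside the locus that its region overlaps. An AP1 word, the site of FOS and JUN proteins, was in 9 of the 70 windows (12.9%, 95% CI 6.91 to 22.7), against 5710 of the 28549 regions and 1.98% of windows 1 kb away. Counted in the W1 list alone, 9 of 37 windows (24.3%, 95% CI 13.4 to 40.1) held a SOX word, against 18.5% of the whole list. A match describes letters and is not evidence of a bound site, and windows without one carry nothing about SOX9.

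After induction SOX9 bound at 7 of the 8 genes, most densely at *Vdr* and *Nfatc1*, and *Foxi3* had no SOX9 peak at any time point. Over the 8 loci the SOX9 lists held 2 peaks at D0, and after induction 37 (W1), 51 (W2), 56 (W6) and 25 (W12). Peaks without a D0 overlap stood at 7 loci at W1, where 51.6% of all protein-coding loci had one, at 6 loci at W2 (57.0% of all), at 7 at W6 (58.2% of all) and at 6 at W12 (38.2% of all). The median number of peaks per locus was 3, 5, 5 and 2.5 from W1 to W12, and over all protein-coding loci it was 1, 1, 1 and 0.

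**Figure D1:**
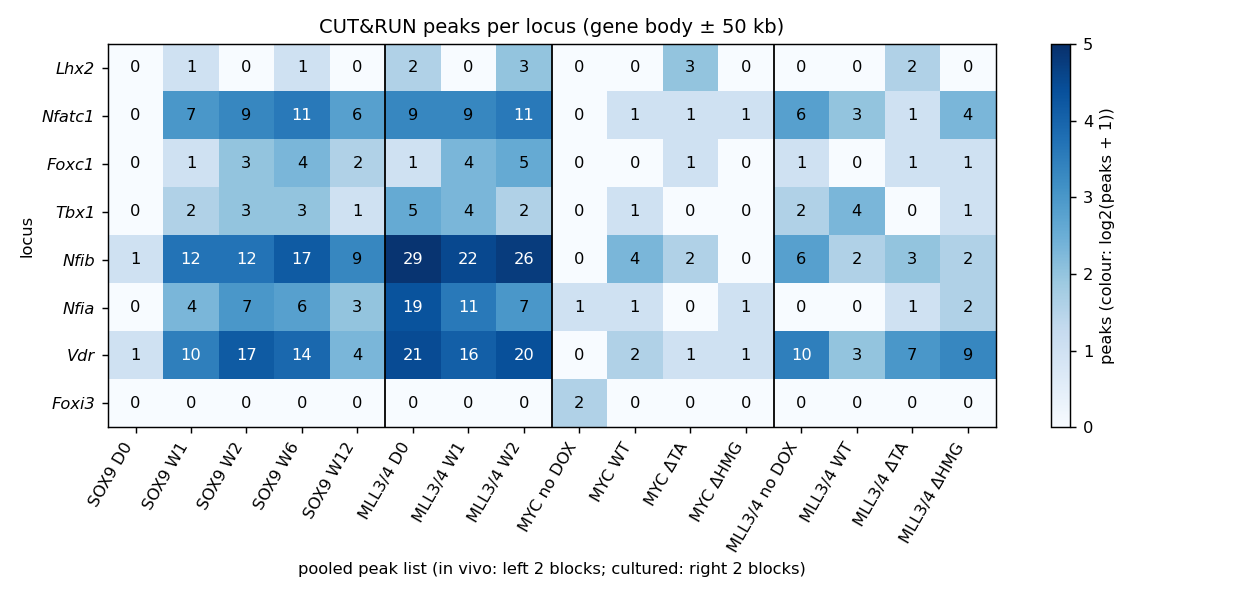
Number of peaks at each locus (rows) in each of the 16 pooled lists (columns), with SOX9 and MLL3/4 CNR of sorted EpdSCs in the left 2 blocks and MYC-tag and MLL3/4 CNR of cultured keratinocytes in the right 2 blocks. The SOX9 columns go from 0 or 1 peak per locus at D0 to as many as 17 at W2 (*Vdr*) and W6 (*Nfib*), and the *Foxi3* row is empty but for 2 MYC-tag peaks without DOX.

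The loci differ in length, from 105 kb for *Foxi3* to 516 kb for *Nfib*, with a median of 143 kb against 117 kb over all protein-coding genes, so peaks were also expressed per 100 kb. *Vdr* had 6.40, 10.9, 8.96 and 2.56 SOX9 peaks per 100 kb at W1, W2, W6 and W12, and *Nfatc1* had 3.38, 4.35, 5.32 and 2.90. *Nfib*, which had the most peaks at W6, came to 2.33, 2.33, 3.30 and 1.75 per 100 kb. At W2 the density was lower in 99.7% of all protein-coding loci than at *Vdr*, in 92.6% than at *Nfatc1*, in 83.5% than at *Foxc1*, in 82.3% than at *Tbx1*, in 78.3% than at *Nfib* and in 67.7% than at *Nfia*. The median over the 8 members was 1.38, 2.53, 3.02 and 1.33 peaks per 100 kb from W1 to W12, against 0.503, 0.763, 0.796 and 0 over all loci.

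The number of SOX9 peaks was highest at W2 at *Vdr* (10, 17, 14 and 4 from W1 to W12) and *Nfia* (4, 7, 6 and 3), and at W6 at *Nfatc1* (7, 9, 11 and 6), *Foxc1* (1, 3, 4 and 2) and *Nfib* (12, 12, 17 and 9). *Tbx1* had 2, 3, 3 and 1 peaks, and *Lhx2* had 1, 0, 1 and 0. All loci that were bound at W6 had fewer peaks at W12, when the whole list was also shorter (9745 peaks against 20579). The times of the highest counts depended in part on the length of the lists. With the lists of W1 to W12 cut to equal size by total signal, the 8 loci together held 32, 35, 30 and 25 peaks, so that the highest count was at W2 and not at W6. *Nfatc1* then had 7, 8, 7 and 6 peaks (highest at W2), *Nfib* 11, 9, 10 and 9 (highest at W1) and *Nfia* 1, 2, 0 and 3 (highest at W12). *Vdr*, with 10, 12, 8 and 4, and *Foxc1*, with 1, 2, 3 and 2, were highest at W2 and W6 as before.

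Merged over time, the peaks formed 70 regions, 23 at *Nfib*, 16 at *Vdr*, 12 at *Nfatc1*, 9 at *Nfia*, 5 at *Foxc1*, 3 at *Tbx1* and 2 at *Lhx2*. Of these, 17 (24.3%, 95% CI 15.8 to 35.5) were bound at all 4 time points, against 17.9% of all 28549 regions, and 21 (30.0%, 95% CI 20.5 to 41.5) at 1 time point, against 36.0%. The first list with a peak was that of W1 for 37 regions, of W2 for 16, of W6 for 15 and of W12 for 2. Of the 37 bound at W1, 34 (91.9%, 95% CI 78.7 to 97.2) were bound at W2, 30 (81.1%) at W6 and 17 (45.9%, 95% CI 31.0 to 61.6) at W12, and for all regions the shares were 77.8%, 73.1% and 35.9%. Regions of 1 locus share that locus, so the interval is narrower than a comparison of loci would be. By annotation (GENCODE vM21), 40 regions were intronic, 13 intergenic, 4 exonic and 13 within 1 kb of an annotated start, of which 10 were a start of the member itself. By the 5′ ends of whole genes, the nearest protein-coding gene start was that of the member at 54 of the 70, among them 2 *Tbx1* regions that lay within 1 kb of the start of a *Gnb1l* transcript.

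**Figure D2:**
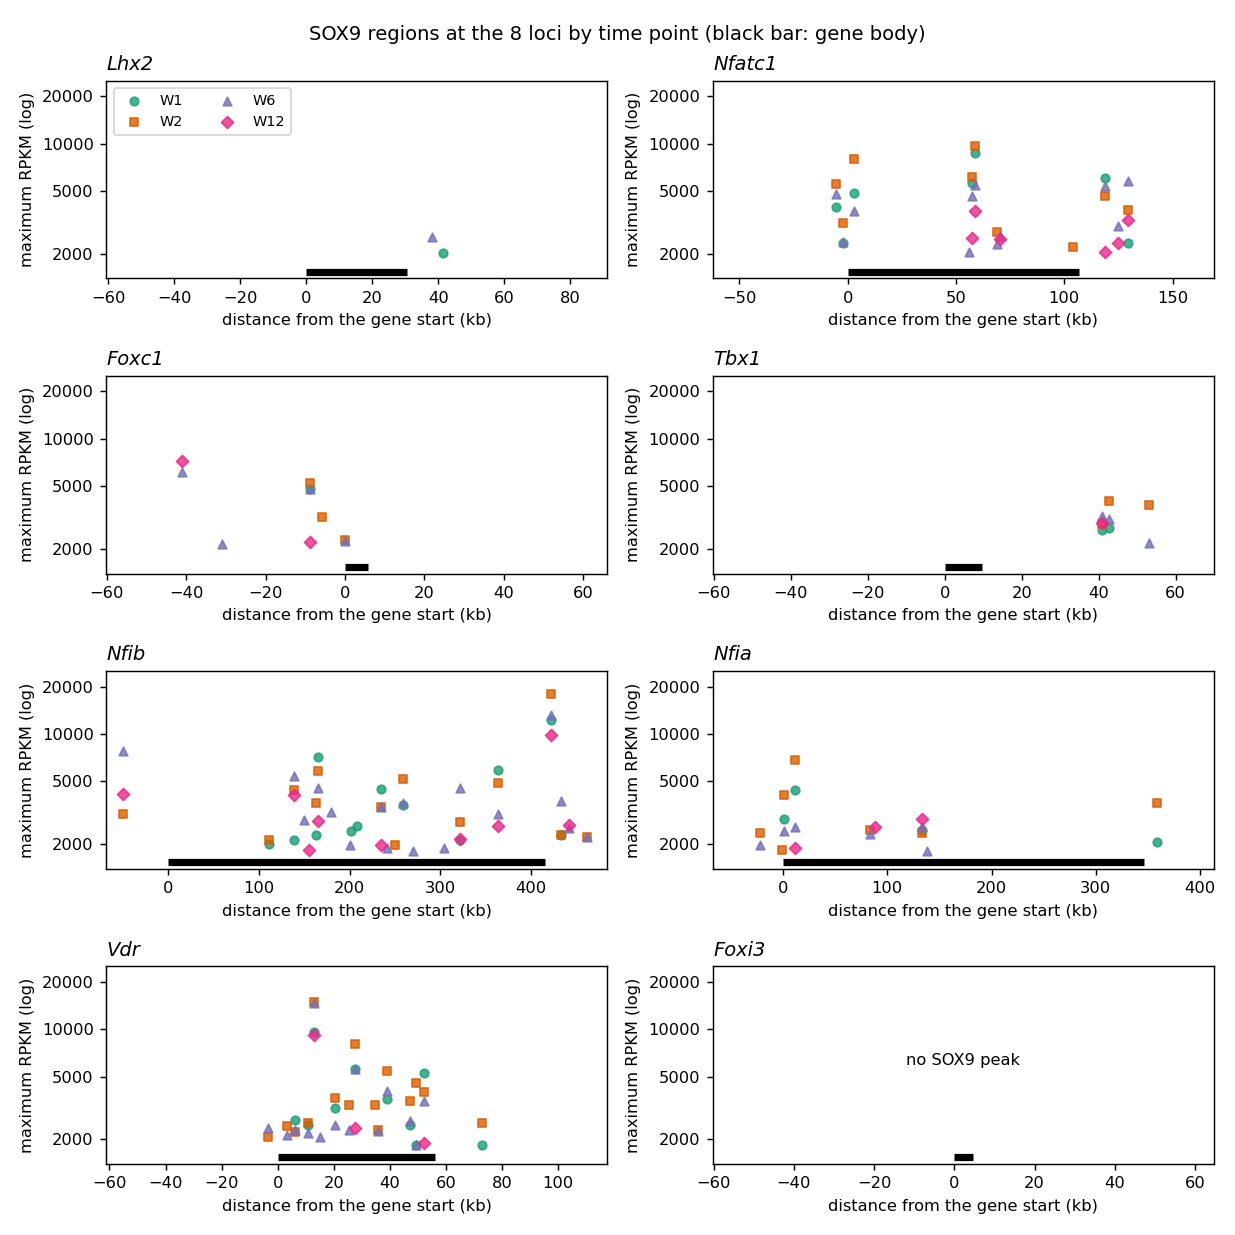
SOX9 regions at the 8 loci, with the distance of the region's middle from the gene start in kb on the x axis (negative values are upstream) and the maximum signal in RPKM on a logarithmic y axis, 1 marker per time point and a black bar for the gene body. Most *Nfib* and *Nfia* regions lie far inside or beyond the gene, the *Tbx1* regions all lie downstream of its gene body, and *Foxi3* has none.

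*Vdr* (ENSMUSG00000022479.15, chr15:97854425-97910630, minus strand) had the most SOX9 peaks per 100 kb of the members at W1, W2 and W6, and at W12 *Nfatc1* had more (2.90 against 2.56). Its strongest region (chr15:97897284-97898191), 12.9 kb inside the gene and within 1 kb of the start of a further *Vdr* transcript, is the one whose window with 3 SOX words is printed above. The maximum there was 9566 RPKM at W1 (166 fragments, 95% Poisson CI 8166 to 11136), 14821 at W2 (12809 to 17060), 14692 at W6 (13193 to 16315) and 9192 at W12 (7962 to 10558). These intervals cover counting error only. W2 and W6 stood above W1 and W12 without overlap of the intervals. The region was higher than 98.3%, 99.4%, 99.7% and 98.5% of the peaks of the 4 lists in turn. At D0 it had neither a SOX9 nor an MLL3/4 peak, and it had an MLL3/4 peak at both W1 and W2.

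A second *Vdr* region in an intron 27.6 kb from the start (chr15:97882105-97883906) already had a SOX9 peak at D0, of 2213 RPKM, and D0 MLL3/4 peaks. It reached 5589, 8098, 5583 and 2344 RPKM from W1 to W12. Of the 16 *Vdr* regions, 12 lay on a D0 MLL3/4 peak, and 3 were still bound at W12. Over all regions 53.7% lay on a D0 MLL3/4 peak. Counted by list, 7 of the 10 *Vdr* peaks of W1 (70.0%, 95% CI 39.7 to 89.2) and 14 of the 17 of W2 (82.4%, 95% CI 59.0 to 93.8) did so, against 67.7% and 66.3% of the whole lists, which lie within these intervals. At 7 of the 16 regions, those in the 3′ part of the gene and beyond, the nearest gene start was that of *Hdac7*, the neighbouring gene, although 1 of them (chr15:97858284-97858826) lay within 1 kb of the start of a *Vdr* transcript.

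*Nfatc1* (ENSMUSG00000033016.16, chr18:80606205-80713071, minus strand) had its strongest SOX9 region in an intron 58.6 kb from the gene start (chr18:80653941-80654908). The maximum there was 8759 RPKM at W1 (95% Poisson CI 7422 to 10267), 9702 at W2 (8089 to 11544), 5457 at W6 (4559 to 6480) and 3769 at W12 (2997 to 4678). The W1 and W2 intervals overlapped each other and stood above those of W6 and W12. A neighbour 57.2 kb from the start (chr18:80655531-80656249) followed it with 5647, 6188, 4701 and 2528 RPKM, and differed in having a D0 MLL3/4 peak. Regions near the gene start behaved otherwise. That at 2.87 kb inside the gene (2 SOX words) and those upstream of it at -2.30 and -5.49 kb were bound from W1 to W6 but not at W12, with as much as 8022 RPKM at W2 for the first. Downstream of the gene, the regions at 119 and 129 kb from its start were bound at all 4 time points, and the nearest gene start to the latter was that of *Ctdp1*.

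*Nfib* and *Nfia* encode a pair of related proteins and lie on the same chromosome. At *Nfib* (ENSMUSG00000008575.17, chr4:82290173-82705750, minus strand) the strongest SOX9 signal of the 8 loci stood 5.95 kb beyond the 3′ end of the gene (chr4:82283384-82284220). It had a D0 SOX9 peak of 2828 RPKM, then 12216 RPKM at W1 (95% Poisson CI 10627 to 13976) and 18030, 13223 and 9789 RPKM from W2 to W12, ranks 104, 58, 94 and 113 in lists of 15651, 18657, 20579 and 9745 peaks. In the gene, 5 regions were bound at all 4 time points, at 139, 165, 235, 322 and 363 kb from the start. The one printed above, at 165 kb (chr4:82540518-82541048), fell from 7145 RPKM at W1 (5943 to 8519) to 5806, 4534 and 2803 (2144 to 3601) at W12. A region at the upstream edge of the locus, at -50.2 kb, went the other way, being absent at W1 and having 3132, 7808 and 4182 RPKM from W2 to W12. This region overlaps the locus only in part. Its maximum, with a window of 2 SOX words, lies beyond the 50 kb, and its W2 peak is not among those counted for the locus. Of the 23 *Nfib* regions, 10 came from 1 time point.

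At *Nfia* (ENSMUSG00000028565.18, chr4:97772734-98118874, plus strand) the region printed above (chr4:97784208-97784645), in an intron 11.7 kb from the start, had 4437 RPKM at W1 (95% Poisson CI 3502 to 5546), 6799 at W2 (5460 to 8367), 2561 at W6 (1959 to 3289) and 1884 at W12 (1352 to 2556). W2 stood above W6 and W12 without overlap. This region had no MLL3/4 peak at D0, W1 or W2, unlike the region 0.630 kb inside the *Nfia* start, where SOX9 of 2881, 4125 and 2435 RPKM at W1, W2 and W6 lay on MLL3/4 peaks of D0, W1 and W2. A region 133 kb from the start was nearly level, with 2478, 2368, 2561 and 2895 RPKM. The nearest gene start to the regions at 11.7 and 133 kb, both in *Nfia* introns, was that of *E130114P18Rik*.

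*Foxc1* (ENSMUSG00000050295.4, chr13:31806633-31812476, plus strand) showed an early and a late region. The early one lay upstream at -8.78 kb, at the start of the noncoding gene *Gm11379* (chr13:31797196-31798520), with 4840, 5271 and 4827 RPKM at W1, W2 and W6 and 2206 RPKM (95% Poisson CI 1627 to 2925) at W12. The late one, at -41.2 kb (chr13:31765227-31765735), had no peak at W1 and W2 and 6213 and 7215 RPKM at W6 and W12, the highest values of the locus, and no MLL3/4 peak at D0, W1 or W2. At the *Foxc1* start itself (19 bp from it) SOX9 was listed at W2 (2292 RPKM) and W6 (2267 RPKM).

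*Tbx1* (ENSMUSG00000009097.10, chr16:18580979-18590671, minus strand) had 3 SOX9 regions and all of them lay at the neighbouring gene *Gnb1l*, 40.8, 42.6 and 53.2 kb from the *Tbx1* start, 2 of them within 1 kb of an annotated *Gnb1l* start. The nearest gene start to the region at 53.2 kb was that of *Rtl10*. The region at 40.8 kb (chr16:18549417-18550347) had 2651, 2903, 3232 and 2941 RPKM from W1 to W12, values whose intervals all overlapped. *Lhx2* (ENSMUSG00000000247.11, chr2:38339281-38369733, plus strand) had 2 regions downstream of the gene, at 38.1 kb from its start with 2561 RPKM at W6 (95% Poisson CI 1959 to 3289) and at 41.4 kb with 2017 RPKM at W1. Neither was seen at a second time point. *Foxi3* (ENSMUSG00000055874.6, chr6:70956531-70961066, plus strand) had no SOX9 region within 50 kb, and with 100 kb to each side it had 3, 3, 2 and 2 peaks from W1 to W12. With 10 kb to each side *Tbx1* had 0 at these 4 time points.

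**Figure D3:**
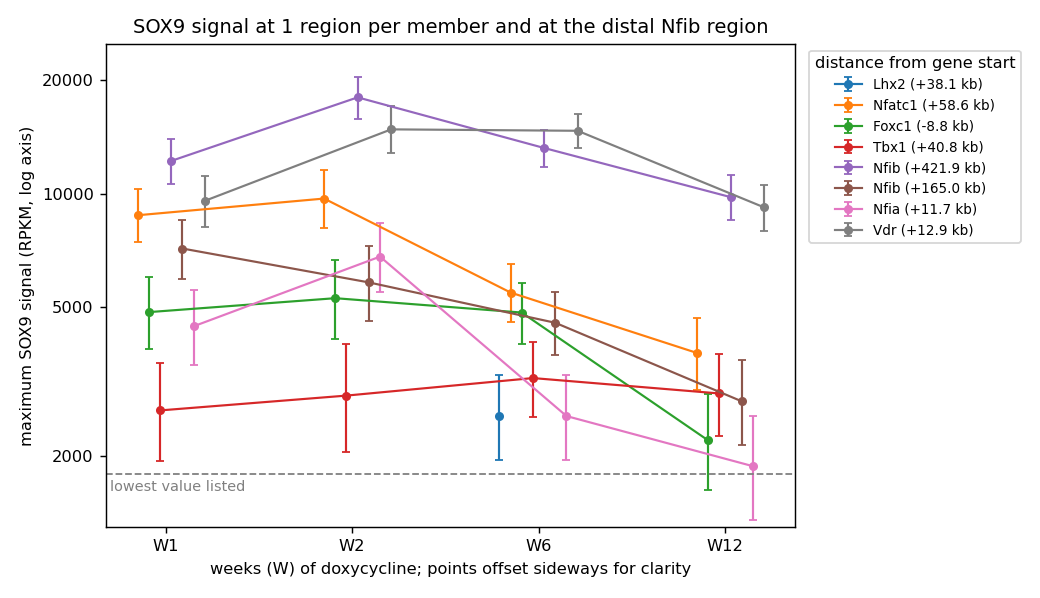
Maximum SOX9 signal in RPKM (logarithmic y axis) at 1 region per member, and at the *Nfib* region beyond the 3′ end that also had a D0 peak, from W1 to W12, with 95% Poisson intervals of the fragments at the maximum as bars and the lowest value listed as a dashed line. *Vdr* at 12.9 kb and *Nfib* at 422 kb stay at 9192 RPKM or more throughout, *Nfatc1* and the other *Nfib* region fall from W2 to W12, *Tbx1* stays between 2651 and 3232, and *Lhx2* has a value at W6 alone.

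MLL3/4 was then followed at the same loci. A later peak without a D0 overlap was called gained, a later peak with one kept, and a D0 peak without a later overlap lost. MLL3/4 was found at 7 of the 8 genes, and *Foxi3* had no peak. Loci with a peak numbered 7 at D0 (71.7% of all protein-coding loci had one), 6 at W1 (67.9% of all) and 7 at W2 (65.0% of all). The 8 loci held 86 peaks at D0, 66 at W1 and 74 at W2. Peaks changed at each of the 7, through gained peaks alone at *Foxc1* and through both gained and lost peaks at the others. At W1, 27 peaks were gained, 39 kept and 44 lost. At W2, 37 were gained, 37 kept and 45 lost. Gained peaks stood at 6 loci at W1 (45.6% of all protein-coding loci had one) and 7 at W2 (42.2% of all), and lost peaks at 6 loci at both (63.5% and 63.2% of all). The share of later peaks that were gained was 40.9% (95% CI 29.9 to 53.0) at W1, against 39.7% of the whole list, and 50.0% (95% CI 38.9 to 61.1) at W2, against 35.7%. Lost peaks were 51.2% (95% CI 40.8 to 61.4) of D0 peaks at W1, against 48.5%, and 52.3% (95% CI 41.9 to 62.6) at W2, against 48.7%. With the 3 lists cut to equal size the lost peaks came to 28 at W1 and 29 at W2. The W2 list, the shortest, was left whole, so at least 37 peaks were still gained at W2. Whether more were lost than gained at W2 thus turned on the length of the lists.

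**Figure D4:**
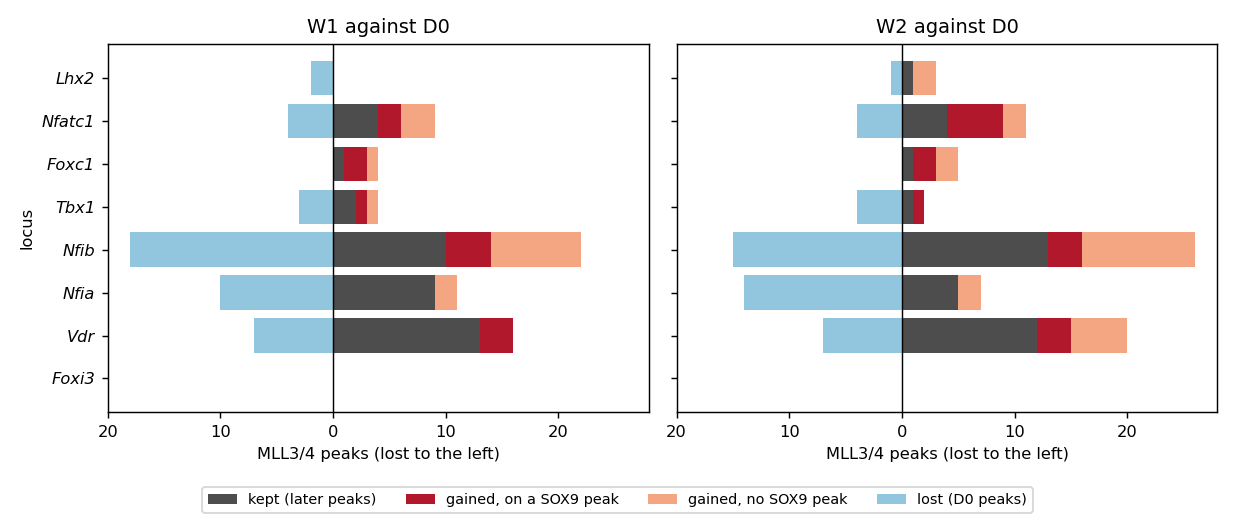
MLL3/4 peaks per locus at W1 (left) and W2 (right) against D0, with D0 peaks lost drawn to the left of 0 and later peaks, kept or gained, to the right, gained peaks being split by whether a SOX9 peak of the same time point overlapped them. *Nfatc1* and *Foxc1* gained at least as many peaks as they lost at both time points, *Nfia* lost 10 and 14 and gained 2 and 2, and *Vdr* kept more than it lost.

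Counts per gene are given next, and a difference between genes was not tested. *Nfatc1* gained 5 and 7 peaks at W1 and W2, kept 4 and 4 and lost 4 and 4 of 9. *Foxc1* went from 1 peak at D0, which was kept, to 4 at W1 and 5 at W2, with 3 and 4 gained. *Vdr* kept 13 and 12, gained 3 and 8 and lost 7 and 7 of 21. At W2 *Nfatc1* and *Foxc1* thus had more MLL3/4 peaks than at D0, and *Vdr* had 20 against 21.

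*Nfib* kept 10 and 13, gained 12 and 13 and lost 18 and 15 of 29. Its relative *Nfia* kept 9 and 5, gained 2 and 2 and lost 10 and 14 of 19, the largest fall among the members, from 19 peaks to 11 and 7. *Tbx1* kept 2 and 1, gained 2 and 1 and lost 3 and 4 of 5. *Lhx2* lost both of its D0 peaks at W1 and had 3 at W2, of which 2 were gained and 1 kept. No peak of any MLL3/4 list lay within 1 kb of an annotated *Lhx2*, *Tbx1* or *Foxi3* start.

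Fewer gained MLL3/4 peaks than not lay on SOX9 of the same time point. With SOX9 peaks of any time point from W1 to W12, 16 of the 27 gained at W1 and 22 of the 37 gained at W2 overlapped one. Kept peaks did so in 27 of 39 and 29 of 37 cases, and lost peaks in 10 of 44 and 6 of 45. Pooled time points cover more of the genome than a single one. The matching share of all gained peaks was not counted, so these counts cannot be called particular to the members. For the same time point, the shares of all gained peaks lay within the intervals of the members' shares. At W1, 12 of the 27 (44.4%, 95% CI 27.6 to 62.7) overlapped a W1 SOX9 peak, against 30.5% of all gained peaks, and at W2, 14 of 37 (37.8%, 95% CI 24.1 to 53.9) overlapped a W2 SOX9 peak, against 38.5%. Such peaks were found at 5 of the 8 loci at both W1 and W2, *Nfatc1*, *Foxc1*, *Tbx1*, *Nfib* and *Vdr*, whereas 16.6% and 18.9% of all protein-coding loci had one. At W1 and W2 in turn, these were 3 of 3 and 3 of 8 gained peaks at *Vdr*, 2 of 5 and 5 of 7 at *Nfatc1*, and 4 of 12 and 3 of 13 at *Nfib*. At *Foxc1* they were 2 of 3 and 2 of 4, and at *Tbx1* 1 of 2 and 1 of 1. At *Nfia* and *Lhx2*, 0 of the gained peaks lay on SOX9 of the same time point. Kept peaks lay on SOX9 in 23 of 39 cases at W1 (59.0%, 95% CI 43.4 to 72.9) and 26 of 37 at W2 (70.3%, 95% CI 54.2 to 82.5), against 55.0% and 58.4% of the whole lists. Lost peaks rarely did, 3 of 44 at W1 (6.82%, 95% CI 2.35 to 18.2), against 7.58% of all lost peaks. Of the 27 peaks gained at W1, 14 (51.9%, 95% CI 34.0 to 69.3) had an MLL3/4 peak at W2 as well, against 38.7% of the whole list.

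The gained peaks of highest total signal (signal summed over the peak) at *Nfatc1*, *Nfib* and *Vdr* lay on SOX9 regions. At *Nfatc1* this was the intronic region at 58.6 kb, with a total of 3295 at W1 (rank 2801 of 31539 peaks) and 3969 at W2 (rank 2157 of 29281). At *Nfib* it was the region beyond the 3′ end, with 3063 at W1 (rank 3222) and 2449 at W2 (rank 5513). At *Vdr* it lay 10.8 kb from the start, in the region next to the strongest one (chr15:97899111-97900253), with 1121 at W1 and 2122 at W2. All of these were on SOX9 at both time points.

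At *Foxc1* the gained peak of highest total was at the gene start at W1 (total 798, with SOX9 listed there at W2 and W6) and at the upstream region near *Gm11379* at W2 (2404). At *Tbx1* it was in the *Gnb1l* intron 53.3 kb away, nearest to the gene start of *Rtl10*, with 1835 at W1 and 1686 at W2, where SOX9 was listed at W2 and W6. *Nfia* gained its strongest peak 138 kb from the start at W1 (1097), where SOX9 was listed at W6, and 154 kb from it at W2 (1230), where it was not listed at any time point. Both lay inside *Nfia*, the first within 1 kb of the start of an *Nfia* transcript and the second in an intron, although the nearest whole-gene start was that of *E130114P18Rik*. The *Lhx2* peak gained at W2 (674) lay on the region that SOX9 bound at W6.

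Seen from SOX9, 33 of the 70 regions (47.1%, 95% CI 35.9 to 58.7) lay on a D0 MLL3/4 peak, against 53.7% of all regions. Another 22 (31.4%, 95% CI 21.8 to 43.0) had none at D0 and one at W1 or W2, against 20.7% of all regions, and 15 (21.4%, 95% CI 13.4 to 32.4) had none at D0, W1 or W2, against 25.6%. The middle group held 9 *Nfib*, 4 *Nfatc1*, 3 *Vdr*, 2 *Foxc1*, 2 *Tbx1*, 1 *Nfia* and 1 *Lhx2* regions. The groups differed in when SOX9 came. Of the 15 regions without MLL3/4, 10 (66.7%) were first bound at W6 or W12, for which no MLL3/4 list exists among those examined, against 2 of 33 (6.06%) and 5 of 22 (22.7%), and over all regions the shares were 67.9%, 9.69% and 14.9%. Of the W1 SOX9 peaks of the 8 loci, 22 of 37 (59.5%, 95% CI 43.5 to 73.7) lay on a D0 MLL3/4 peak, against 67.7% of the whole list.

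In cultured keratinocytes MYC-tag CNR found WT-SOX9 at 5 of the 8 genes, *Nfatc1*, *Tbx1*, *Nfib*, *Nfia* and *Vdr*, with 9 peaks in all, and 29.8% of all protein-coding loci had a WT-SOX9 peak that no peak without DOX overlapped. Every one of the 9 lay on a SOX9 region of sorted EpdSCs (95% CI 70.1 to 100), against 54.6% of the whole WT-SOX9 list. The strongest were at the regions that were also the highest of their loci at W1 and W2 in skin, the *Nfatc1* intron at 58.6 kb (8372 RPKM, 51 fragments) and the *Vdr* region with 3 SOX words (7880 RPKM, 48 fragments). The *Nfib* region beyond the 3′ end followed with 3283 RPKM (20 fragments), and the other 6 peaks had 1970 or 2298 RPKM, that is 12 or 14 fragments, close to the list's minimum of 11. *Lhx2*, *Foxc1* and *Foxi3* had no WT-SOX9 peak.

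MYC-tag peaks of the truncated forms overlapped SOX9 regions of EpdSCs at 1 site. ΔTA-SOX9 had 8 peaks, 3 at *Lhx2*, 2 at *Nfib* and 1 each at *Nfatc1*, *Foxc1* and *Vdr*, of which 1 lay on a SOX9 region of EpdSCs, the *Nfatc1* intron at 57.2 kb (4102 RPKM, 20 fragments). That is 12.5% (95% CI 2.24 to 47.1), an interval that holds the 46.0% of the whole ΔTA-SOX9 list. These 5 loci stand against 39.0% of all protein-coding loci with such a peak that no peak without DOX overlapped. The highest ΔTA-SOX9 value, 4718 RPKM (23 fragments), stood at -33.9 kb, upstream of *Lhx2* and nearest to the gene start of *Dennd1a*, where WT-SOX9 was not listed. ΔHMG-SOX9 had 1 peak each at *Nfatc1*, *Nfia* and *Vdr*, all of 1982 RPKM or 8 fragments, the least the list holds, and 0 of the 3 lay on a SOX9 region (95% CI 0.00 to 56.1), an interval that holds the 41.2% of the whole list. The peaks were at 3 loci, where 26.1% of all protein-coding loci had such a peak, and as many peaks as there were without DOX. Without DOX there was 1 peak at the *Nfia* start (2226 RPKM, 11 fragments) and 2 upstream of *Foxi3* (1822 RPKM, 9 fragments each), the farther one nearest to the gene start of *Tex37*, and neither *Foxi3* peak was seen in any list with DOX. Peaks of so few fragments would not all be listed again, and with MYC-tag lists of equal size WT-SOX9 kept 3 peaks, ΔTA-SOX9 0 and ΔHMG-SOX9 1 at these loci.

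MLL3/4 CNR in cultured cells without DOX found peaks at 5 of the 8 genes (62.5%), against 70.9% of all protein-coding loci. The median was 1.5 peaks per locus, against 2 over all loci. Without DOX there were 25, of which 10 were at *Vdr*, 6 at *Nfatc1*, 6 at *Nfib*, 2 at *Tbx1*, 1 at *Foxc1* and 0 at *Lhx2*, *Nfia* and *Foxi3*. With WT-SOX9 there were 12, of which 4 were gained and 8 kept, while 16 of the 25 were lost (64.0%, 95% CI 44.5 to 79.8, against 82.0% of the whole list, which was also far shorter with 10543 peaks against 33975). Lost peaks were at 4 loci (68.7% of all protein-coding loci had one) and gained peaks at 3, *Tbx1* (2), *Nfib* (1) and *Vdr* (1), where 20.4% of all had one. Of the 4 gained peaks, 1 lay on a WT-SOX9 peak, at *Nfib* (25.0%, 95% CI 4.56 to 69.9), and the 53.5% of all gained peaks lies within this interval. With lists of equal size the 8 loci gained 9 peaks, kept 3 and lost 5, so that whether more were lost than gained turned on the length of the lists.

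At *Tbx1*, MLL3/4 peaks numbered 2 without DOX and 4 with WT-SOX9, 0 with ΔTA-SOX9 and 1 with ΔHMG-SOX9. At *Vdr* they numbered 10, 3, 7 and 9, and at *Nfatc1* 6, 3, 1 and 4, in the same order. The cells without DOX all carried WT-SOX9. For the truncated forms, gained, kept and lost therefore compare different transgene lines, and line and DOX cannot be told apart. Over the 8 loci ΔTA-SOX9 had 6 gained, 9 kept and 16 lost peaks, and ΔHMG-SOX9 had 4 gained, 15 kept and 9 lost. Lost peaks were 64.0% (95% CI 44.5 to 79.8) with ΔTA-SOX9, against 44.3% of the whole list, and 36.0% (95% CI 20.2 to 55.5) with ΔHMG-SOX9, against 43.5%. Gained peaks stood at 5 loci with ΔTA-SOX9, where 36.3% of all protein-coding loci had one, and at 3 with ΔHMG-SOX9 (30.1% of all). ΔHMG-SOX9 cells kept 9 of the 10 *Vdr* peaks of cells without DOX.

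Lists of other genes were set beside the members. Of 12 further transcription factors of the hair follicle, 9, 10, 11 and 8 had a SOX9 peak without a D0 overlap from W1 to W12, against 51.6%, 57.0%, 58.2% and 38.2% of all protein-coding loci, with medians of 2.5, 2, 4.5 and 2 peaks and 0.973, 0.929, 1.51 and 0.827 peaks per 100 kb. *Tcf7l2* and *Foxp1* had the most, with 12 and 17 SOX9 peaks at W6, and *Hoxc13*, a factor of the differentiating hair shaft, had 0 at all time points, as *Foxi3* did. Gained MLL3/4 peaks stood at 9 of the 12 at W1 (45.6% of all loci) and 10 at W2 (42.2% of all loci). Of 7 relatives and partners of the members, *Nfic*, *Nfix* and *Nfatc2* had 7, 8 and 3 SOX9 peaks at W1, *Rxra*, the partner of VDR, had 0, 3 and 4 from W1 to W6, and *Foxc2*, *Lhx9* and *Tbx3* had 0 at every time point. New SOX9 peaks stood at 42.9% of the 7 at W1 and 57.1% at W2, near the 51.6% and 57.0% of all loci. In culture, WT-SOX9 peaks without a no-DOX overlap stood at 3 of the 12 (25.0%) and 1 of the 7 (14.3%), both below the 29.8% of all loci.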

How the data were processed

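Of 41 CNR samples, 32 were of SOX9, MLL3/4 or MYC-tag and stand behind 18 peak lists. Of these lists, 16 combine 2 samples each and 2 hold replicate 1 alone. The other 9 samples, of JUN, BRG1 or ARID1A CNR, were not used here. Per the study's methods and the submitters' processing notes, the authors trimmed reads with Skewer, aligned them with Bowtie2 2.2.9 to mm10, removed duplicates with Picard, kept short fragments with SAMtools 1.3.1, combined replicates, made coverage with deepTools 3.1.2 and called peaks with SEACR in stringent mode. The deposited SOX9 and MYC-tag maxima are in RPKM and the authors kept peaks above 1800. The deposited MLL3/4 maxima are whole-number signal (coverage) without scaling to depth. The deposited total is a score, the signal summed over the peak. MLL3/4 lists of different depth are therefore not comparable in length or signal, and short lists hold fewer weak peaks.

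Loci came from GENCODE vM21 protein-coding genes with 50 kb to each side. Peaks sharing at least 1 bp were taken as overlapping. SOX9 peaks of W1 to W12 were merged where they overlapped. RPKM maxima were whole multiples of 1 step per list, which gave fragments and their exact 95% Poisson intervals. Shares have 95% Wilson intervals. Words were searched within 50 bp of the middle of the maximum. All 8 members were described. For each, the text names the SOX9 region present at most time points and, among those, of highest maximum without a D0 peak, and the gained MLL3/4 peak of highest total at W1 and W2. Other regions given were chosen after their values were seen. The members and gene lists were chosen with earlier results of these data known. Alternatives were 10 and 100 kb flanks, peaks within 500 bp merged, maxima above 3600 RPKM, lists of equal size, 50% overlap, windows of 100 bp to each side and the no-DOX lists of replicate 1. The pair of WT-SOX9 MLL3/4 samples with DOX are described as replicate 2 but titled 1 and 2, and were taken as separate samples. Python 3.11.15, pandas 2.3.3, numpy 2.4.6, scipy 1.17.1, matplotlib 3.10.9 and pysam 0.24.0 were used, and the counting code was tested on simulated data.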

Additional observations from a re-analysis of the deposited data

How the results depend on the processing

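No paired analysis was possible because each group had 1 pooled list and no test was made. For the 8 loci together, 79 values under the alternatives stayed within 1.5 times the count or the interval of the share, and 27 did not. Peaks above 3600 RPKM numbered 0, 15, 25, 18 and 6 for SOX9 from D0 to W12, and 0 without DOX, 2 for WT-SOX9, 3 for ΔTA-SOX9 and 0 for ΔHMG-SOX9. With lists of equal size there were 30 SOX9 peaks at W6 and 3, 0 and 1 MYC-tag peaks for WT-SOX9, ΔTA-SOX9 and ΔHMG-SOX9. Lost MLL3/4 peaks then numbered 28 at W1 and 29 at W2, and in culture with WT-SOX9 9 were gained, 3 kept and 5 lost. With 100 kb to each side there were 5, 14, 15 and 6 MYC-tag peaks without DOX and with WT-SOX9, ΔTA-SOX9 and ΔHMG-SOX9, 43 MLL3/4 peaks gained at W1 and 34 lost in culture with WT-SOX9. With 10 kb there were 4 ΔTA-SOX9 peaks, and 2 MLL3/4 peaks gained and 5 kept in culture with WT-SOX9. Without replicate 2, the no-DOX lists gave 3 MYC-tag peaks, and 4 gained, 8 kept and 23 lost MLL3/4 peaks with WT-SOX9. Merging of peaks within 500 bp, 50% overlap and windows of 100 bp changed none of these counts by over 1.5 times. For single genes, 87 values moved (32 of them with 100 kb to each side) and 353 did not. Depth limits the MYC-tag counts, since a peak there can rest on 8 to 14 fragments, and the depth of the MLL3/4 lists is unknown.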
